A study of Mus musculus with 2 samples.

Results

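The TRIM genes of G1E-ER4 cells were described here across 2 RNA sequencing libraries. Members were the protein-coding genes of the GENCODE M21 mouse annotation whose symbol is Trim, a number and at most 1 letter. The rule found 68 genes, and 67 of them had a row among the 43346 gene rows of the deposited tables. Trim61 had none and was not analysed here.

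TRIM proteins share a tripartite motif of a RING zinc finger, B-box zinc fingers and a coiled coil. The RING finger takes ubiquitin from an E2 enzyme and passes it to a substrate, so that most members act as ubiquitin ligases, and the domain after the coiled coil, most often PRY-SPRY, picks the substrate or partner. In the erythroid lineage Trim10 is a RING finger protein known from terminal differentiation. Trim58 is a ligase of late erythroblasts that binds dynein and leads it to degradation. Other members silence genes in the nucleus or act on antiviral signalling.

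G1E-ER4 is an immortalized mouse erythroid line whose own Gata1 gene is not functional and in which the erythroid transcription factor GATA1 was restored as a fusion with the part of the estrogen receptor that binds hormone. Both libraries came from cells given 17beta-estradiol, the ligand of the fusion, at 10 nM for 30 h, and the labels number them biological replicates 1 and 2. They form 1 group of 1 line, without an untreated library analysed here, so the values below are levels in this state and not effects of estradiol or GATA1. Levels are in TPM, a measure of transcript abundance which corrects for transcript length and sums to the same total in each library. A mean ± SD has n = 2, coordinates are those of mm10, and in bulk RNA fewer cells with a transcript and less of it per cell cannot be told apart.

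The promoter sequences of 4 members are shown because Trim10 and Trim58 are the erythroid members, and Trim41 and Trim56 were the highest members with an entry in the RefSeq promoter table. The latter pair was chosen after their levels were seen. Each is the 250 bases before the RefSeq start on GRCm38.p6, read 5′ to 3′ in the direction of the gene. Trim10 covers chr17:36869324-36869573 on the plus strand, Trim58 chr11:58640215-58640464 on the plus strand, Trim41 chr11:48817392-48817641 on the minus strand and Trim56 chr5:137116208-137116457 on the minus strand. Capitals mark a match to the GATA motif, which was searched on both strands as AGATAA and AGATAG and as the same letters with T in place of the first A.
Trim10: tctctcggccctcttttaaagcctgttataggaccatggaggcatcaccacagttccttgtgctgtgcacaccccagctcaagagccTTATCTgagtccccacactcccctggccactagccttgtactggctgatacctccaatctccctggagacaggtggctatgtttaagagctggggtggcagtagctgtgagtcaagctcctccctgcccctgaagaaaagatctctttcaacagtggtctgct
Trim58: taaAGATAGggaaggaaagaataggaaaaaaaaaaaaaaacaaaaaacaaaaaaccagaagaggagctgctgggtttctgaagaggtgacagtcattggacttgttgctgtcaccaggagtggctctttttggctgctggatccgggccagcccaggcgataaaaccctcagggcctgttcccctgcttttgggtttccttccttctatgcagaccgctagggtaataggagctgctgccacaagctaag
Trim41: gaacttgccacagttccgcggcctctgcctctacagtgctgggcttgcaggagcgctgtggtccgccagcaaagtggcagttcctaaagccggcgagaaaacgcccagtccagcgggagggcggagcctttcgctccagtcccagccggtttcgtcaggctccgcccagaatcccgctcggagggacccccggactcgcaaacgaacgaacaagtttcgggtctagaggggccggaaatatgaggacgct
Trim56: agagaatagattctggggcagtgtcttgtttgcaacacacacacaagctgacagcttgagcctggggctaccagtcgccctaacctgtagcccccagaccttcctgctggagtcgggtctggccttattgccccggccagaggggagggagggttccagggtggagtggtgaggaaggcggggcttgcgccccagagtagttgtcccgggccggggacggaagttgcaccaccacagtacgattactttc

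The Trim10 window held 1 GATA match, on the strand opposite to the gene, 163 to 158 bases before the start. The Trim58 window held 1 match on the strand of the gene, 247 to 242 bases before the start, and those of Trim41 and Trim56 held none. Such a match occurred in 26.5% of all 32851 windows of the table and in 11 of the 66 windows (16.7%) of the 52 members that have an entry. Among the 14 entries of members with at least 1 TPM in both libraries, Trim10 and Trim27 had one. A CACC-type motif, CCNCNCCC on either strand, was in none of the 4 windows, in 45.9% of all windows and in 39.4% of member windows. The interferon-type motif, 2 copies of GAAA with any 2 bases between them on either strand, was in 2.98% of all windows and in 5 member windows (7.58%), those of Trim5, Trim12c, Trim26, Trim30a and Trim30d. These letter matches describe the windows and do not show binding.

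The libraries held 73681318 and 56056404 expected counts, the estimated fragments per gene, and 3 counts, taken as the floor for a count of 0, equal 0.0407 and 0.0535 CPM, counts scaled to library size. All 10 erythroid markers had at least 1 TPM in both libraries (median 367 TPM). None of the 8 lymphoid, 5 mast cell or 6 fibroblast markers did, and of the 8 megakaryocyte markers 4 did, at summed levels over all 8 of 32.0 and 24.6 TPM. Of the 6 megakaryocyte markers tested, 3 were called higher in replicate 2 and 2 lower in the exact binomial test described below. The shares of all genes tested were 28.9% and 30.4%. Pf4 had 0 and 20 counts and Vwf 0 and 24, and only these 2 also passed edgeR's exact test described below. None of the 10 myeloid markers reached 1 TPM in both libraries, but their sum was 0.34 TPM in replicate 1 and 11.2 TPM in replicate 2. Mpo, Elane and Prtn3, the 3 tested, were called higher in replicate 2 by both tests.

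Of the 67 TRIM genes, 20 (29.9%) had at least 1 TPM in both libraries, beside 35.3% of the 21474 protein-coding genes. Another 22 (32.8%) had 0 counts in both libraries, beside 39.6% of protein-coding genes. These were Trim5, Trim6, Trim9, Trim12a, Trim29, Trim30a, Trim30b, Trim30c, Trim31, Trim32, Trim38, Trim40, Trim42, Trim43b, Trim43c, Trim47, Trim50, Trim52, Trim54, Trim63, Trim69 and Trim80. A further 15 had at most 3 counts in each library, and the remaining 10 lay between. The family summed to 559 TPM in replicate 1 and 589 TPM in replicate 2, a mean of 574 ± 20.7 TPM and 0.0574% of all TPM. The 3 highest members, Trim8, Trim41 and Trim56, held 48.5% and 49.9% of the family's TPM in replicates 1 and 2, and the 7 highest held 79.8% and 79.6%. The median of log2(TPM + 1) over the 67 members was 0.00718. Among members with at least 1 TPM the median level was 13.0 TPM, beside 15.4 TPM for protein-coding genes chosen in the same way.

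**Figure D1:**
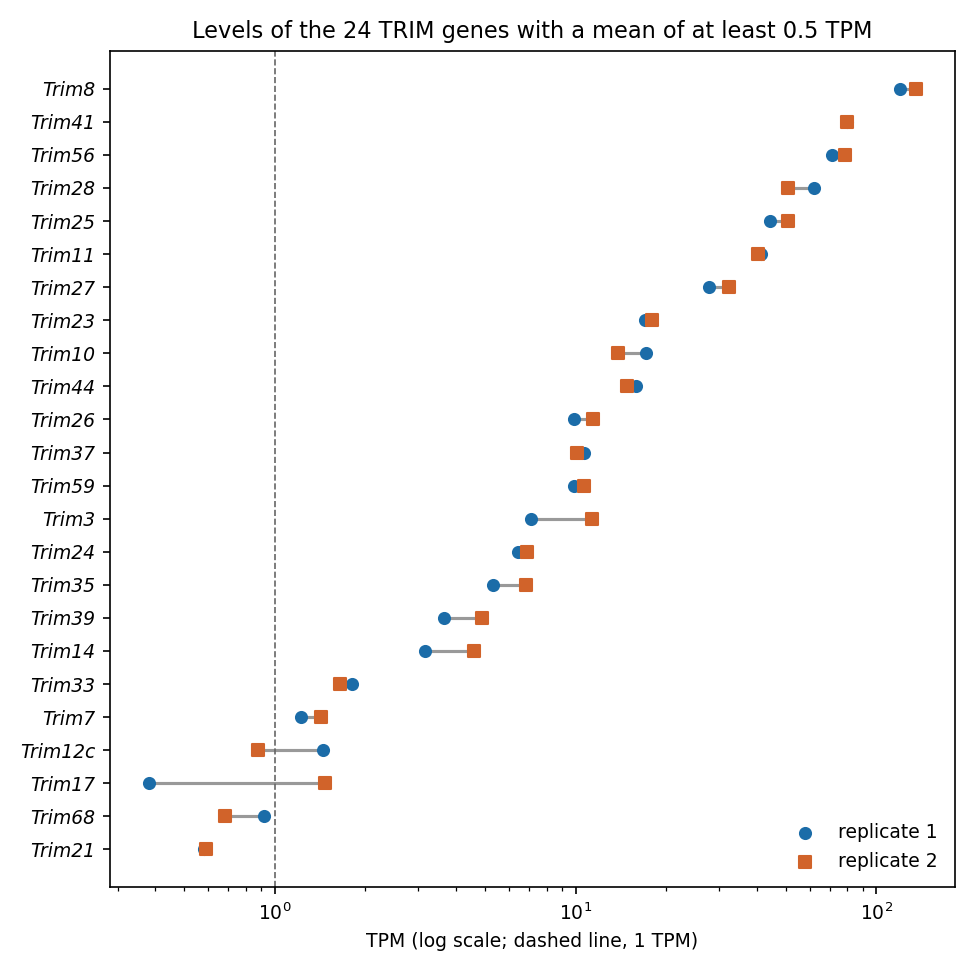
TPM (log scale) of the 24 TRIM genes with a mean of at least 0.5 TPM in replicate 1 (circles) and replicate 2 (squares), ordered by the mean; the grey lines join the libraries. Trim8 is highest at 119.8 and 136 TPM, Trim10 lies ninth at 17.1 and 13.9 TPM, and Trim17 has the widest spread, from 0.38 to 1.47 TPM; Trim58 lies below the range shown.

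Trim10 (ENSMUSG00000073400.6, chr17:36869574-36877833, plus strand) was at 17.1 TPM in replicate 1, from 2668 counts, and at 13.9 TPM in replicate 2, from 1645. Its mean of 15.5 ± 2.30 TPM was the ninth highest of the family and above that of 82.4% of protein-coding genes. The range over its libraries overlapped that of the next gene above, Trim23, and that of the next below, Trim44, while those of Trim23 and Trim44 did not overlap each other. Only 1 transcript of Trim10 was quantified, ENSMUST00000060524 of 7 exons and 2245 bases, so all of its reads were assigned to that one.

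Trim58 (ENSMUSG00000037124.6, chr11:58640465-58652404, plus strand) had 2 counts in replicate 1 and 0 in replicate 2. The exact 95% Poisson interval of replicate 1 corresponds to 0.00160 to 0.0476 TPM, and the floor of 3 counts in replicate 2 to 0.0260 TPM. The interval and the floor cover counting error only. Trim10 was 1300-fold higher than Trim58 per transcript length in replicate 1, with a counting interval of 360 to 10733, and at least 534-fold higher in replicate 2, taking 3 counts of that library as the floor. The erythroid ligase that binds dynein was thus at or under the floor in both libraries, while Trim10 was well above it. Transcript GC content, which can affect recovery in a library, was 52.2% for Trim10 and 56.3% for Trim58. Its part in their levels was not tested.

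The dynein and dynactin genes, whose products move cargo along microtubules and include the target of Trim58, were read from a list. Of 19 measured, 18 had at least 1 TPM in both libraries and the median level was 33.2 TPM. Dctn1, the large dynactin subunit, had 355 ± 77.9 TPM and Dync1h1, the dynein heavy chain, 210 ± 34.6 TPM. Of the intermediate chains, Dync1i2 had 6.17 and 3.88 TPM, and Dync1i1 had 0 counts in both libraries.

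Among nuclear members, which carry a PHD finger and a bromodomain, 3 of 4 had at least 1 TPM in both libraries. Trim28, the corepressor that KRAB zinc finger proteins recruit to silence retroelements, had 62.0 and 50.8 TPM. Trim24, a coregulator of nuclear receptors, had 6.41 and 6.87 TPM. Trim33, which binds SMAD proteins and is known to act in transcription elongation in erythroid cells, had 1.81 and 1.64 TPM from 1171 and 813 counts. Trim66 had 1 and 3 counts. The 4 levels did not overlap between genes, and Trim28 was the highest in each library.

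Partners of these nuclear proteins were mostly present. Of the 15 genes listed as silencing partners of Trim28, 13 had at least 1 TPM in both libraries (median 9.93 TPM). Setdb1, the histone methyltransferase recruited by Trim28, had 16.8 ± 1.27 TPM, and Chd3 and Chd4, remodellers of the NuRD complex, had 105 ± 29.0 and 93.9 ± 26.6 TPM. Zfp57, a KRAB zinc finger protein of imprinted regions, had 0 counts. Of the 9 partners of Trim33, 8 had at least 1 TPM, with a median of 16.2 TPM. The elongation factor genes Paf1 and Supt5 had 138 ± 31.4 and 110 ± 7.29 TPM, Smad4 had 14.9 ± 3.55 TPM, and Smad3 had 0 and 5 counts.

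The highest member was Trim8 (chr19:46501702-46516848, plus strand), a ligase known from cytokine and NF-kB signalling, at 119.8 and 136 TPM. It alone reached 100 TPM in both libraries, and it lay above 96.3% of protein-coding genes, of which 4.32% reached that level. Trim56, a ligase of antiviral signalling through the STING pathway, had 71.2 and 78.4 TPM. Trim25, which ubiquitinates the RNA sensor encoded by Ddx58, had 44.1 and 50.9 TPM. Trim26, linked to the control of Irf3, had 9.89 and 11.4 TPM. All 4 had higher TPM in replicate 2, as had the sum of the family, at 559 and 589 TPM. The share of all genes with higher TPM there was not counted. The 4 did not pass the test described below that allows for spread between libraries.

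The pathway on which these ligases act was present in part. Of 15 measured genes of innate immune signalling, 9 had at least 1 TPM in both libraries. The transcription factors Irf3, Rela and Irf7 had 64.5 ± 4.20, 48.2 ± 0.113 and 33.5 ± 5.47 TPM. The sensor Ddx58 had 0.05 and 0.16 TPM, and Tmem173, which encodes STING, had 1 and 2 counts. Of 18 interferon-stimulated genes, 4 had at least 1 TPM in both libraries and 5 had 0 counts in both. Among the former were Irf9 at 23.9 ± 2.39 TPM, Bst2 at 6.53 ± 3.03 TPM and Stat2 at 5.05 ± 0.0283 TPM.

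PRY-SPRY proteins made up 38 of the 67 genes. Of these, 10 had at least 1 TPM in both libraries, 21 had at most 3 counts in each library, and the class held 42.4% of the family's TPM. Trim41 (chr11:48806404-48817353, minus strand), a ligase known to act on protein kinase C, led the class at 80.1 and 79.6 TPM, and the lowest members of the class had 0 counts. The 3′ end of Trim41 overlaps that of Rack1 on the other strand, which had 275 and 97.1 TPM. The overlap runs only from base 48806404 to 48806434, and the deposited posterior SD of the count was 0 for both genes in both libraries. The sources used here do not give how the counting treated strand, so reads from such a stretch cannot be told apart. Trim11, which helps to clear misfolded proteins, had 41.3 and 40.3 TPM. Trim27, the RET finger protein, had 27.8 and 32.4 TPM.

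The 7 genes without a named domain after the coiled coil held 38.0% of the family's TPM, most of it from Trim8 and Trim56. Trim44, which lacks a RING finger and has a zinc finger like those of ubiquitin proteases, had 15.9 and 14.8 TPM. Trim44 and Trim14 were the 2 expressed genes among the 5 members known to lack RING. Trim37, the MATH domain ligase that controls centrosomes, had 10.7 and 10.1 TPM. Trim59, anchored in membranes, had 9.88 and 10.6 TPM, and Trim13, its class mate, had 2 and 0 counts.

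Some classes were at or near 0. The muscle group of Trim54, Trim55 and Trim63 had 1 count in all. Of the 5 COS box and FN3 genes, whose proteins bind microtubules, none had 1 TPM, and Trim46 was the highest at 0.13 and 0.07 TPM. Of the 5 genes with filamin or NHL repeats, Trim3 had 7.11 and 11.3 TPM, Trim2 and Trim45 were at or under 0.09 TPM, and Trim32 had 0 counts. Trim80, to which no class was assigned, had 0 counts.

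**Figure D2:**
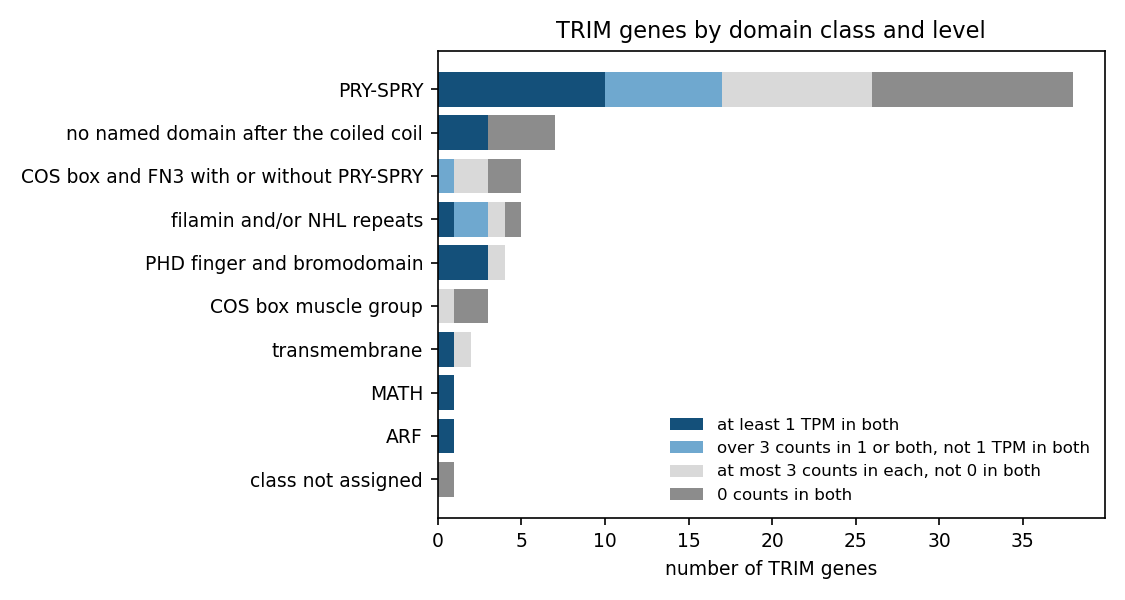
Number of TRIM genes (x axis) in each domain class, divided by level in the 2 libraries. PRY-SPRY is the largest class with 38 genes, of which 10 had at least 1 TPM in both libraries and 12 had 0 counts in both; no gene of the COS box groups reached 1 TPM.

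Of the 5 family genes with other names, Pml, the scaffold of nuclear bodies, had at least 1 TPM in both libraries, at 61.2 and 29.2 TPM. Mid1 had 7 and 10 counts, Cmya5 0 and 2, and Mid2 and Mefv had 0. Of the 14 E1 and E2 genes that work with RING ligases, 9 had at least 1 TPM in both libraries (median 34.1 TPM). Ube2v1, an E2 variant that pairs with Ube2n, had 183 ± 21.4 TPM, while Ube2n itself had 4.56 and 3.17 TPM. Uba1, the main E1, had 171 ± 55.1 TPM. Of the UBE2D enzymes that work with many RING ligases, Ube2d2a had 106 ± 7.70 TPM and Ube2d1 had 0 counts.

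The gene levels of some members rested on transcripts that do not encode the full protein. Trim23, a ligase with an ARF GTPase domain, had 17.0 and 17.9 TPM at the gene level. Of this, 93.9% and 93.7% came from ENSMUST00000160230, a transcript of 331 bases with no type in GENCODE M21, which took 209 of 460 and 153 of 363 counts. The protein-coding transcripts of Trim23 had 1.03 and 1.13 TPM, which places the gene 21st in the family by coding TPM in place of eighth. A short transcript turns few counts into much TPM, and this difference is between scales within 1 gene.

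For Trim28, the protein-coding transcript ENSMUST00000005705 of 17 exons took 34.9% and 49.8% of TPM but 72.6% and 82.8% of counts. The retained-intron transcript ENSMUST00000149061 took 53.9% of TPM in replicate 1 and 14.1% in replicate 2, and another, ENSMUST00000125136, 9.54% and 34.7%. By coding transcripts Trim28 had 21.6 and 25.3 TPM, so that the higher gene level in replicate 1 was not seen in the coding transcript. The gene Zbtb45 overlaps Trim28 on the other strand, at 73.0 and 71.5 TPM.

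Trim27 had 40.5% and 39.7% of its TPM in the retained-intron transcript ENSMUST00000124052 and a coding level of 18.0 ± 2.14 TPM. Trim59 had 42.2% and 49.6% in the processed transcript ENSMUST00000153259 and a coding level of 4.38 and 4.01 TPM. Coding levels were also below gene levels for Trim3, at 2.64 and 3.36 TPM, and for Trim24, at 3.76 and 3.35 TPM. Trim39 had 1.69 and 1.38 of its 3.64 and 4.89 TPM in coding transcripts. Trim37 had its coding TPM mainly in ENSMUST00000139532 of 766 bases, at 68.8% and 65.8%, and Trim25 in ENSMUST00000100627 of 1433 bases, at 81.7% and 88.2%. The long transcript ENSMUST00000041282 of Trim37, of 5632 bases, had 3.33 and 3.42 TPM, and ENSMUST00000107896 of Trim25, of 5590 bases, had 8.09 and 6.03 TPM.

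Trim41, Trim56 and Trim11 had all of their TPM in transcripts annotated as coding, but part of it in short ones. For Trim41 the leading transcript of 3432 bases had 51.9 and 50.5 TPM, below the gene levels of 80.1 and 79.6 TPM, and the rest lay in transcripts of 429 and 471 bases that took 402 and 201 of 13273 counts in replicate 1. For Trim56 the leading transcript of 9279 bases had 42.0 and 46.2 TPM, below the gene levels of 71.2 and 78.4 TPM. A transcript of 867 bases held the rest of Trim56 from 1552 and 1279 counts. For Trim11 the leading transcript held 70.1% of TPM on average. In all, 13 of the 20 expressed members had over 90% of TPM in coding transcripts in both libraries. Of these, Trim8, Trim10, Trim11, Trim25, Trim33, Trim35, Trim41, Trim44 and Trim56 have only coding transcripts among those quantified, which fixes their share.

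Among the 18 expressed members that have 2 or more annotated transcripts, 1 transcript led by TPM in both libraries for 15 (83.3%), beside 88.9% of 5714 protein-coding genes. The exceptions were Trim24, Trim26 and Trim28. Ranked by expected counts, all 18 had the same leader, beside 91.2% of protein-coding genes.

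**Figure D3:**
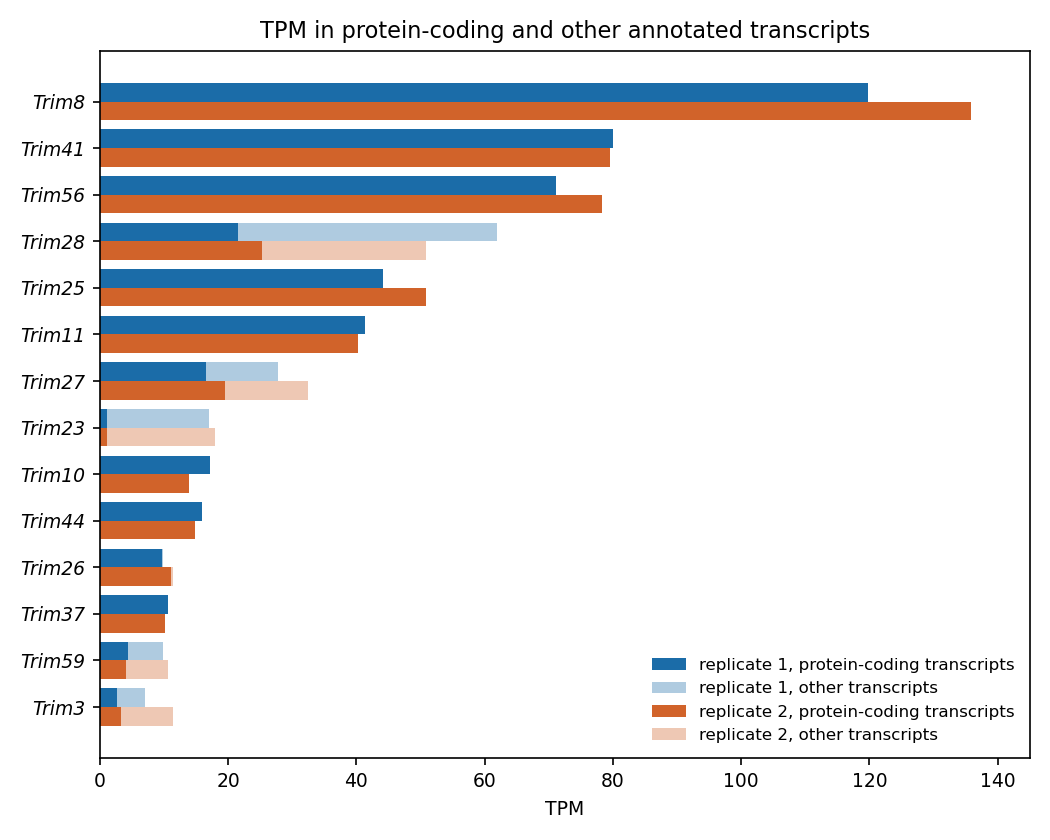
TPM of the 14 TRIM genes with the highest mean, divided into protein-coding (dark) and other (light) annotated transcripts, in replicate 1 (upper bar) and replicate 2 (lower bar). Nearly all of the Trim23 bars is in other transcripts. Those of Trim8, Trim41, Trim56 and Trim10 are wholly protein-coding, since only coding transcripts of these genes were quantified.

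Several members lie in groups of neighbouring genes, formed here by chaining starts that lie within 500 kb of the next. On chromosome 17, Trim26, Trim15, Trim10, Trim40 and Trim31 lie within 73.1 kb. Trim15 and Trim10 are placed head to head with starts 2364 bases apart. Trim15 had 3 and 0 counts, Trim40 and Trim31 had 0, and Trim26 and Trim10 were above 9 TPM in each library. On chromosome 11, Trim41 and Trim7, a partner of glycogenin, are also head to head with starts 8.79 kb apart, at 79.8 ± 0.332 and 1.32 ± 0.141 TPM. In both of these pairs the levels differed by more than the spread between libraries, while Trim40 and Trim31, also head to head, were both at 0. Gm12184 overlaps Trim7 on the other strand, with 1397 and 906 counts beside 188 and 165 for Trim7. The level of Trim7 is uncertain for this reason, as the treatment of strand is not given.

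Trim58 shares a region of 351 kb on chromosome 11 with Trim17 and Trim11, of which Trim11 was the highest at 40.8 ± 0.707 TPM. The largest group, with 10 genes in 289 kb of chromosome 7, holds the relatives of the retrovirus restriction factor Trim5. None of these had 1 TPM in both libraries and 6 had 0 counts in both. Trim12c was the highest at 1.45 and 0.88 TPM, and Trim34a followed at 0.15 and 0.10 TPM. Some of these genes are close copies of each other, so reads may be divided among them with error. The deposited posterior SDs of the counts were 1.23 and 0.77 for Trim12c, which had 387 and 180 counts. For Trim34a they were 2.41 and 1.11, with 23.8 and 9.52 counts. In the pair of Trim21, the antibody receptor, and Trim68 on chromosome 7, levels were 0.58 and 0.59 TPM for Trim21 and 0.92 and 0.68 TPM for Trim68. The groups of Trim47 and Trim65, Trim75 and Trim60, and Trim43a, Trim43c and Trim43b had at most 1 count per gene and library.

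**Figure D4:**
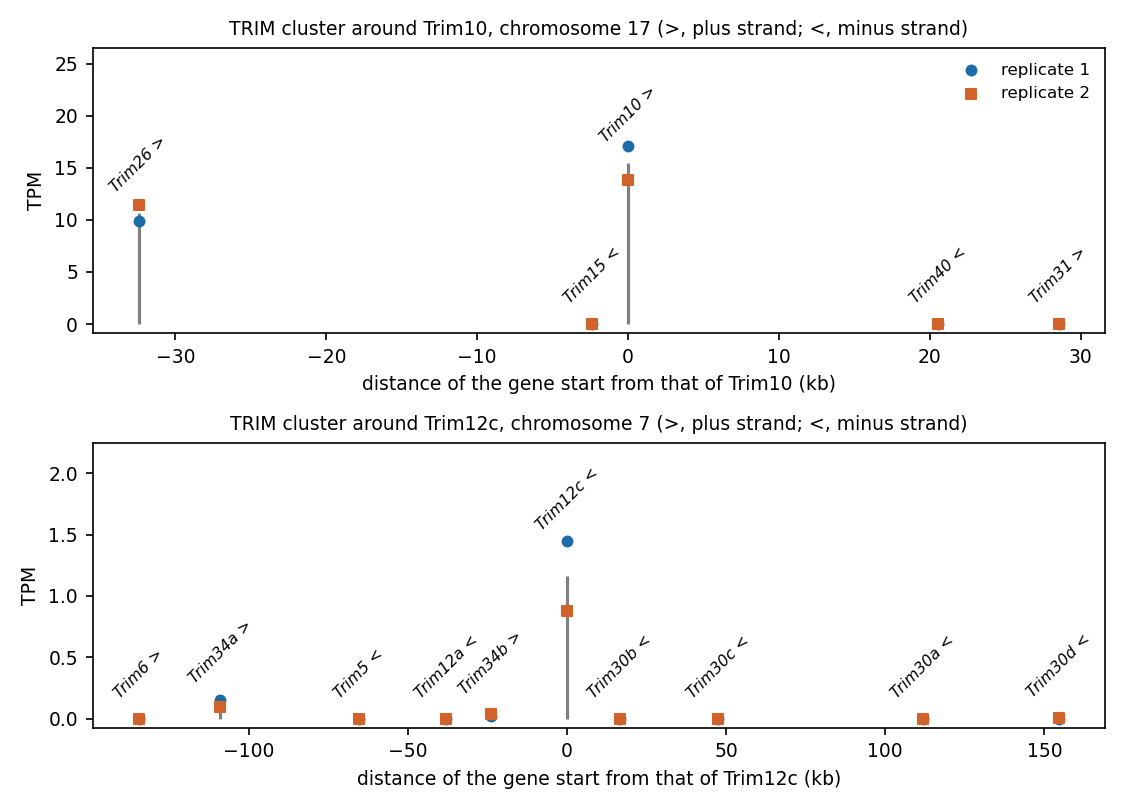
TPM in replicate 1 (circles) and replicate 2 (squares) against the distance of each gene start from that of Trim10 (upper) and Trim12c (lower), in kb; grey lines end at the mean. Trim10 and Trim26 stand above neighbours at or near 0 TPM, and Trim12c, at 1.45 and 0.88 TPM, is the highest of its group.

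The replicates were compared gene by gene on counts. This compares the 2 libraries and not conditions, and p-values carry no spread beyond these samples, which the labels do not describe further as cultures. Of the 67 members, 26 had enough counts to be tested and 14 (53.8%) passed the exact binomial test with Benjamini-Hochberg adjustment over all genes, which allows for counting noise alone. Across all 10445 genes tested, 59.3% passed, so the share of members called in either direction was near the background. The calls were 11 higher in replicate 2 (42.3% of tested members, 28.9% of all genes) and 3 lower (11.5% and 30.4%). With library totals as the scaling the split was 8 higher and 5 lower (30.8% and 19.2% of tested members), beside 23.2% and 36.2% of all genes. Whether the split of members differs from that of all genes was not tested. The median absolute log2 ratio was 0.23 over the members and 0.24 over all genes tested.

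With edgeR's exact test at the common dispersion, which allows for spread between libraries like that of a typical gene, 1 member passed, higher in replicate 2, beside 0.91% of all genes (0.431% higher and 0.479% lower in replicate 2). That member was Trim17, a ligase known from neuronal cell death. It had 101 and 293 counts, or 0.38 and 1.47 TPM, a log2 ratio of 1.99 (95% interval 1.66 to 2.33) with an adjusted p of 3.47e-37 in the exact binomial test and 0.00103 in edgeR's exact test. Trim17 was also the only tested member with a log2 ratio of at least 1 in size, which 4.97% of all genes tested reached.

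Trim17 begins at the same base as Hist3h2a on the same strand, at position 58954685 of chromosome 11. The deposited posterior SDs of the counts were 68.4 and 86.3 for Trim17 and nearly the same for Hist3h2a, which had 2004 and 1359 counts. Summed over both genes, counts were 2104 and 1652, a log2 ratio of 0.10 (95% interval 0.01 to 0.20) with an unadjusted p of 0.0292 in the exact binomial test. Trim17 is therefore uncertain, since the difference was 1.99 as the authors' estimation divided the reads and 0.10 with them pooled. The myeloid markers Mpo, Elane and Prtn3 and the megakaryocyte markers Pf4 and Vwf were also higher in replicate 2, and the part of such cells in this difference was not tested.

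Of the other called members, log2 ratios ran from -0.65 to 0.61. Trim14, an adaptor of antiviral signalling, was higher in replicate 2 by 0.61, with 3.16 and 4.60 TPM and an adjusted p of 4.40e-07 in the exact binomial test. Nans overlaps the 3′ end of Trim14 on the other strand, from base 46493781 to 46503632. It had 5381 and 4619 counts, beside 301 and 335 for Trim14. Reads from this stretch cannot be told apart without the treatment of strand, so the level and difference of Trim14 are uncertain. Trim8 was higher by 0.24 (adjusted p 4.69e-80, exact binomial test). Trim10 had a log2 ratio of -0.25 (95% interval -0.33 to -0.16, adjusted p 1.80e-07, exact binomial test), and Trim12c of -0.65. Neither passed edgeR's exact test at the common dispersion. The third lower member was Trim59. The GC content of the 3 lower members was 42.5% to 52.2% and that of the 11 higher members 50.8% to 58.6%, and its part in the differences was not tested.

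For Trim28 and Trim59 the TPM moved the other way than the counts. Trim28 had a log2 ratio of 0.10 by counts, with a mean effective length of 1484 bases in replicate 1 and 1848 in replicate 2. Trim59 had -0.21, with 1162 and 890 bases. Trim41 and Trim11 were not called, at log2 ratios of 0.03 and 0.01.

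The listed partner genes were called between the libraries in both directions in the exact binomial test, in which 28.9% of all genes tested were higher and 30.4% lower in replicate 2. Of 18 tested dynein and dynactin genes, 5 were higher and 8 lower in replicate 2, and of 12 tested E1 and E2 genes 5 were higher and 4 lower. The counts were 5 higher and 5 lower of 14 for the partners of Trim28, and 2 higher and 5 lower of 8 for those of Trim33. Among innate immune signalling genes 4 were higher and 3 lower of 12, and among interferon-stimulated genes 2 were higher and 1 lower of 7. None of these genes passed edgeR's exact test at the common dispersion, in which the smallest adjusted p was 0.472, for Dctn6. Pml had a log2 ratio of -0.46 by counts. For some listed genes the TPM moved the other way than the counts. Paf1 had 160 and 116 TPM but a log2 ratio of 0.18 by counts. Chd4 had 75.1 and 113 TPM but a log2 ratio of -0.03 by counts.

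**Figure D5:**
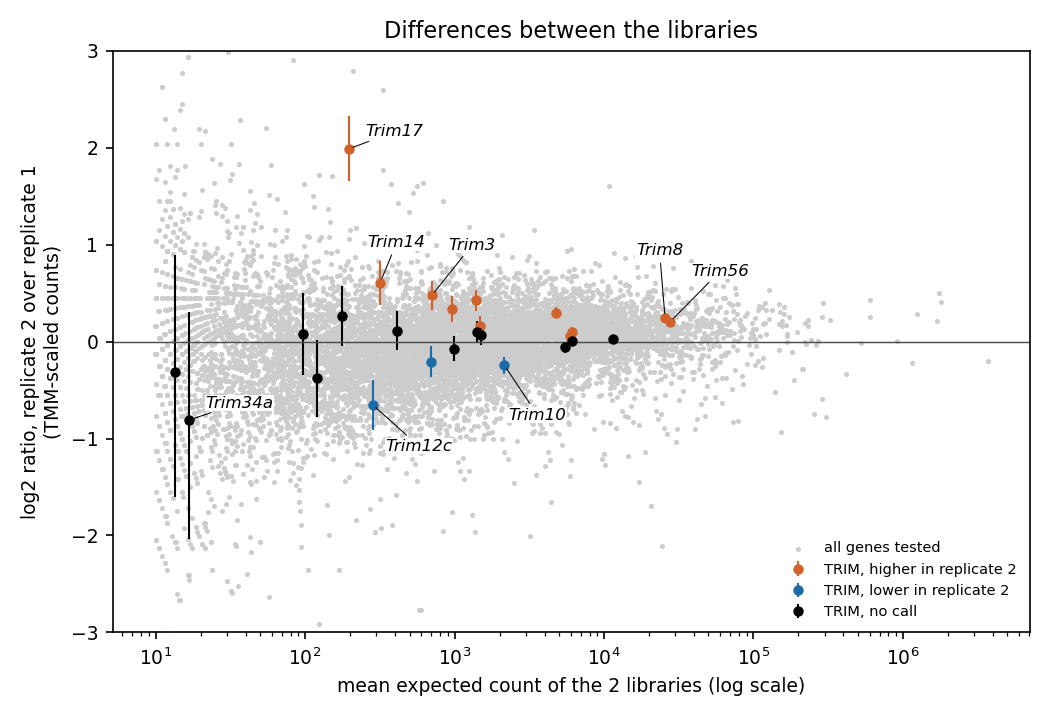
Log2 ratio of replicate 2 over replicate 1 (TMM-scaled counts) against the mean expected count (log scale) for all genes tested (grey) and the 26 tested TRIM genes with exact 95% intervals, coloured by the exact binomial call; 41 genes with ratios beyond 3 or 0 counts in 1 library are not drawn. Trim17 stands apart at 1.99, and the other called members lie between -0.65 and 0.61, within the grey cloud.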

How the data were processed

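Poly(A) RNA of 2 libraries of 1 group was measured by paired-end sequencing. Per the file headers, the authors deposited expected counts, TPM and FPKM for genes and transcripts, and, for each transcript, its percent of the TPM of its gene. Expected counts are the authors' estimated counts, which need not be whole. The authors' TPM values sum to the same total in each library, and the deposited FPKM values are scaled by length and library size. The deposited description files name mm10 and GENCODE M4. The aligner, the quantifier and the treatment of strand are not given in the sources used. Reads shared by close copies are divided by the estimation, and 6 members had a non-zero posterior SD of their count.

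Members, lists and domain classes were chosen with earlier results of these data known, and classes come from textbook knowledge. GENCODE M21, on the same build, supplied names, coordinates and GC content and matched 42462 of 43346 gene rows. Another 26248 rows named by a number and 97 spike-in rows, with 5 and 4 counts in all, were left out. Promoters came from RefSeq, and for 59 of the 66 member windows the RefSeq entry, which runs past the start, held the first 20 bases of a GENCODE transcript of the gene on the strand shown. Mb21d1 was not matched. Values of some list genes are not reported here.

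Expected counts were rounded. The libraries were compared gene by gene with a two-sided exact binomial test against the ratio of TMM-scaled totals (edgeR 4.0.16, R 4.3.3). It took genes with 20 or more summed counts and a Benjamini-Hochberg threshold of 0.05. edgeR's quasi-likelihood test has no residual degrees of freedom in 1 group of 2. The common dispersion was 0.0354, a coefficient of variation of 0.188, from an intercept-only fit. Intervals are at 95% and cover counting error only. The steps were run on simulated data, with counting noise alone for the binomial test and a dispersion of 0.05 for edgeR's exact test. These settings differ from the spread of the 2 libraries, so the simulation does not give the error rates here. Members named are Trim10, Trim58, those with a mean of at least 10 TPM, those called with a log2 ratio of at least 1 and a mean of at least 100 counts, the highest and lowest of each class and neighbour group, and those with 0 counts. Others are named as exceptions, or as examples picked with their values known. Alternatives tried were the level cut, FPKM, posterior means, a TPM total without globin or mitochondrial genes, the pseudocount, GC adjustment, DESeq2 1.42.0 size factors, library totals, count minimums and each replicate left out. Coding transcripts alone and the sum with Hist3h2a were added after the data were seen. Python 3.11.15, pandas 2.3.3 and scipy 1.17.1 were used.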

Additional observations from a re-analysis of the deposited data

How the results depend on the processing

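No paired analysis was possible because both libraries belong to 1 group. The count of 20 members with at least 1 TPM stayed between 16 and 23 under all 7 alternatives run for it. The median of log2(TPM + 1) over members, 0.00718, depends on the scale: it was -3.25 with a pseudocount of 0.1 TPM, 3.79 over members with at least 1 TPM, 0.118 with posterior means, 0.0100 with globin and mitochondrial genes left out of the total, -1.23 after GC adjustment, and 0.0144 with either replicate left out. Members higher in replicate 2 fell from 11 to 1 with edgeR's exact test at the common dispersion, and to 8 with library totals, which shift the median log2 ratio of all genes from -0.02 to -0.08. Members lower in replicate 2 went from 3 to 5 with library totals and to 0 with edgeR's exact test, whose added spread makes calls fewer (unadjusted p under 0.05: 1 member, and 15 by the binomial test). At 10 TPM the same leading transcript was found for 8 of 9 genes, fewer genes being read. Leaving globin and mitochondrial genes out of the total multiplied levels by 1.38 to 1.39, which took Trim10 to 21.4 TPM. With GC adjustment Trim10 went from place 9 to 10 among members, and Trim58, at the floor, has no place that can be read. The 41 members not tested between libraries were too shallow for that test.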
